A study of Homo sapiens with 2 samples.

Results

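WNT pathway genes were taken from 2 RNA-seq libraries of untreated HEK293T cells. The set held 51 genes, chosen by name: 19 WNT ligands, 10 Frizzled receptors, the LRP5 and LRP6 co-receptors, 5 LGR receptors and receptor ubiquitin ligases, 6 genes of the destruction complex and beta-catenin, 3 Dishevelled genes, 4 TCF/LEF factors, DKK1 and PORCN. All 51 were found among the 60664 genes of the deposited tables by matching the Ensembl identifiers to symbols. HEK293T is an established human line derived from embryonic kidney cells, transformed with adenovirus DNA and expressing SV40 large T antigen. The RNA was sequenced in a study of R-loops, in which RNA pairs with a strand of the DNA duplex. All samples form 1 group of 2 replicates, for which the labels name no treatment, genetic change or time point. The cell line entry of replicate 2 reads HEK294T while its title reads HEK293T, and the title was followed. Whether separate cultures were used is not stated, and the spread between replicates may be technical.

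WNT proteins are secreted, lipid-modified ligands that bind Frizzled receptors together with LRP5 or LRP6. Without a ligand, AXIN, APC and GSK3 mark beta-catenin for degradation. With a ligand, Dishevelled recruits AXIN to the membrane, beta-catenin accumulates, and it acts in the nucleus with TCF/LEF factors. HEK293T cells are a common host for reporter assays of this pathway.

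Upstream sequences of 5 members are shown. WNT3 and WNT9B are neighbours, the first detected and the second with few counts. WNT3A, which was detected, and WNT1, at 0 counts, lie on different chromosomes and are not neighbours. DKK1 was the only one of the 39 members with a RefSeq window in which a TCF/LEF motif was found. Each sequence is the 250 bases before the RefSeq start of the gene on GRCh38.p14, read 5′ to 3′ on the gene's strand. For the 4 ligands, the capitals mark each CG dinucleotide. For DKK1, they mark a TCF/LEF motif (CTTTGAA), and nearer the start of the gene the TATA-box motif (TATAAA). The windows are WNT3 at chr17:46818693-46818942 on the minus strand, and on the plus strand WNT3A at chr1:228006748-228006997, WNT9B at chr17:46851333-46851582, WNT1 at chr12:48978072-48978321 and DKK1 at chr10:52314031-52314280. The WNT3 and WNT9B windows lie inside the deposited models of their own genes, outside exons. The WNT3A and WNT1 windows end at the base before the gene model, and the DKK1 window lies in an exon of the antisense gene PRKG1-AS1.
WNT3: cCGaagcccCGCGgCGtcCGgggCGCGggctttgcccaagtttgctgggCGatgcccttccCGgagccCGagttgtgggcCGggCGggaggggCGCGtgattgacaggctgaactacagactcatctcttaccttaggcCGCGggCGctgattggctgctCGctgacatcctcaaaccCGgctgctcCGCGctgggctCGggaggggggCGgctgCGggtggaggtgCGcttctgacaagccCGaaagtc
WNT9B: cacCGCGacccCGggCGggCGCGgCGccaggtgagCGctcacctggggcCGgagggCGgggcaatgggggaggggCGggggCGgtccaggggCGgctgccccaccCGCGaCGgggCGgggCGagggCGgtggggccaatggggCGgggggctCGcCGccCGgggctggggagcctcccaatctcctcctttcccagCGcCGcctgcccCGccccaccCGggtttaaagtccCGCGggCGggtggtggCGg
WNT3A: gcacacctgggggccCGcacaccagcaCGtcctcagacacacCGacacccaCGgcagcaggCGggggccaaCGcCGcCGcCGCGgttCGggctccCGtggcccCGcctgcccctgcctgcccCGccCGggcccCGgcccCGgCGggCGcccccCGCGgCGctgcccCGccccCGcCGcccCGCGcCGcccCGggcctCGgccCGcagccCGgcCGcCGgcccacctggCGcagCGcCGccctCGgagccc
WNT1: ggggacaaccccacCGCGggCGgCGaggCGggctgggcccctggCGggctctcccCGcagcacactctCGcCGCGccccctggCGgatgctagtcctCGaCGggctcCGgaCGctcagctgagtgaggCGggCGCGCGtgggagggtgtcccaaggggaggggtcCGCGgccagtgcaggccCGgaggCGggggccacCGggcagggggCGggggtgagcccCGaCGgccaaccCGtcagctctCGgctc
DKK1: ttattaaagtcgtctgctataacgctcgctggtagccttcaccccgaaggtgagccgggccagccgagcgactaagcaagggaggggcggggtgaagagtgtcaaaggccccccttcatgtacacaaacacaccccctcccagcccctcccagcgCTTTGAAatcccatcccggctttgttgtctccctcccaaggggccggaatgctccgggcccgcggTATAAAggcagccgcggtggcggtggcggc

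Replicate 1 held 18011638 assigned counts and replicate 2 held 18575058, and a gene at 0 counts could hold up to 0.167 CPM (counts scaled to the same library size) in replicate 1 and 0.162 CPM in replicate 2. Levels are compared between genes as TPM, which divides counts by the deposited length of the merged exons and scales each library to the same sum. Values after ± are the SD of the libraries (n = 2). Detection was set at 1 CPM in each of the libraries, that is at least 19 counts in each. The median protein-coding gene had 2.88 TPM. Marker lists describe the cells here and do not test the line, since they were chosen with earlier results of these data known. In the list of genes known from HEK293 cells 9 of 9 were detected, beside 65.9% of protein-coding genes, led by UCHL1 at 334 ± 5.81 TPM. Of the kidney tubule and podocyte markers 0 of 8 were detected, with summed counts of 12 and 17 and with AQP2, SLC12A3 and UMOD at 0. The endothelial list had 0 of 4 detected, with 4 and 2 summed counts, and the fibroblast list 1 of 4, with COL1A1 at 104 and 111 counts and COL1A2 and DCN at 0. The stratified epithelium list had 1 of 4 detected, with EPCAM at 73 and 101 counts and KRT5 and KRT14 at 0. Of the blood list, CD3D and CD3E were at 0 in both libraries. In the same list CD14 had 9 and 13 counts, and HBB, named after its values were seen, had 0 and 38. In bulk RNA, fewer cells that express a gene and less RNA per cell cannot be told apart.

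The receptors and the intracellular pathway were present at every step, while most ligand genes were not. In all, 39 of the 51 genes were detected (76.5%), beside 65.9% of the 19890 protein-coding genes. The 12 that were not were 11 ligands and LGR6. All 10 Frizzled genes, both LRP genes, all 6 destruction complex genes, all 3 Dishevelled genes, all 4 TCF/LEF genes, DKK1 and PORCN passed. WNT1, WNT7A and WNT10A had 0 counts in both libraries, as did 15.4% of protein-coding genes.

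**Figure D1:**
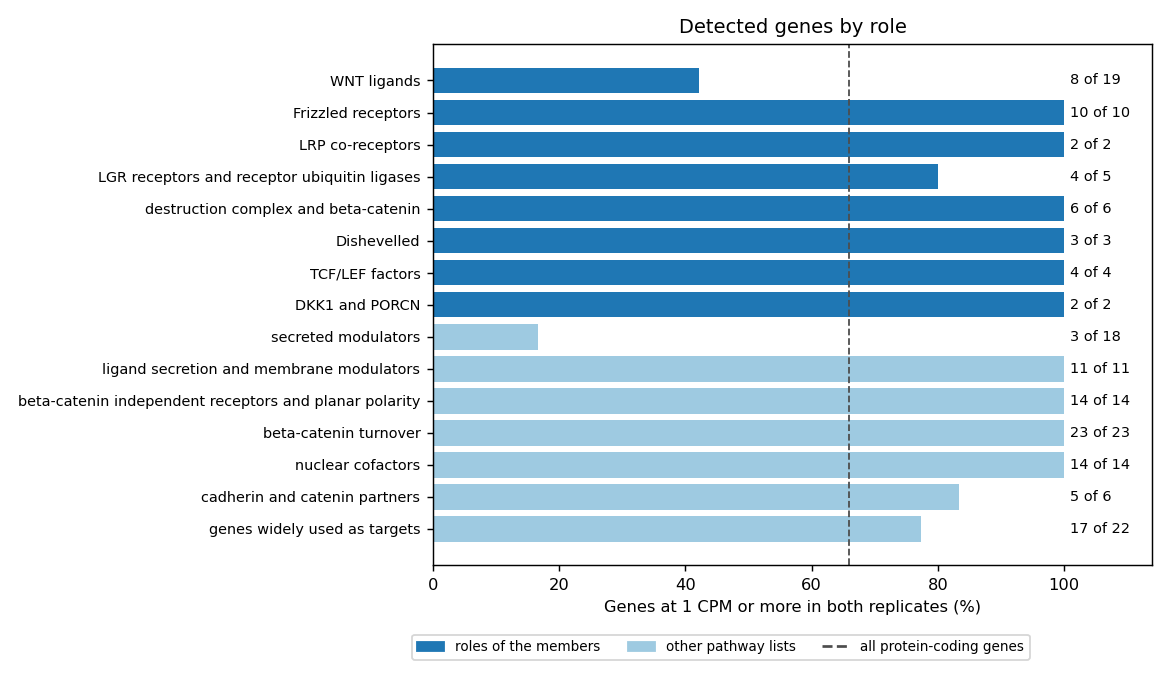
Percent of the genes of each role that reached 1 CPM in each library (horizontal axis), with the counts at the right. Dark bars are the roles of the 51 genes, light bars the other pathway lists, and the dashed line all protein-coding genes (65.9%). The WNT ligands (8 of 19) and the secreted modulators (3 of 18) are the bars that end left of the line.

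Among the ligands, 8 of 19 were detected, and their summed level was 32.1 ± 2.60 TPM. The highest was WNT11 (ENSG00000085741, chr11:76186325-76210736, minus strand), a ligand best known for signalling without beta-catenin. It had 194 counts in replicate 1 and 216 in replicate 2, or 9.54 ± 0.224 TPM, and made up 29.9 ± 3.12% of the summed level. WNT11 lay above the next ligand in both libraries and beyond counting error. Of its exonic bases, 8.60% are shared with an antisense gene that had 30 and 31 counts.

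WNT5A (ENSG00000114251, chr3:55465715-55490539, minus strand), another ligand known for signalling without beta-catenin, had 402 and 292 counts, or 6.44 and 4.35 TPM. Its paralogue WNT5B had 139 and 126 counts, or 3.46 ± 0.421 TPM. WNT10B, which acts through beta-catenin, had 84 and 110 counts, or 4.10 ± 0.565 TPM. WNT3, a ligand of early embryonic patterning, had 146 and 133 counts, or 3.62 ± 0.428 TPM. The order of these 4 was not fixed by the data: the libraries' ranges overlapped between WNT5A and WNT10B, between WNT10B and WNT3, and between WNT3 and WNT5B. In replicate 2, WNT10B stood above WNT5A, and with TPM from the longest coding transcript WNT5B did.

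WNT3A, the ligand most used to activate the pathway in culture, had 60 counts in replicate 1 and 31 in replicate 2. These were 3.33 CPM (exact 95% Poisson interval 2.54 to 4.29) and 1.67 CPM (1.13 to 2.37), intervals that did not meet and that cover counting error only. WNT9A had 47 and 60 counts, or 1.47 ± 0.176 TPM, and stood above WNT3A in replicate 2 but not in replicate 1. WNT2B had 121 and 138 counts, or 1.15 ± 0.0467 TPM, the lowest mean of the detected ligands, though WNT3A was lower in replicate 2. It shares 21.5% of its exonic bases with ST7L on the opposite strand, which had 457 and 511 counts, so its value is uncertain.

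The other 11 ligands had between 0 and 12 counts in each library. WNT8B, with 10 and 12 counts, WNT6, with 11 and 6, and WNT7B, with 10 and 6, were the highest of them. WNT4 had 3 and 7 counts, WNT16 6 and 0, WNT2 4 and 0, WNT9B 3 and 1 and WNT8A 0 and 1. At this depth neighbours in level among these genes cannot be ranked: their ranges overlapped, except between WNT6 and WNT7B, and no neighbours' counting intervals were apart. Genes further apart in level could differ. The lower bounds of WNT8B were 0.256 TPM or more, and the upper bounds of WNT9B at most 0.145 TPM. Over all 19 ligands the median level was 0.553 TPM, and over the 8 detected it was 3.54 TPM, beside 2.88 TPM for the median protein-coding gene.

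**Figure D2:**
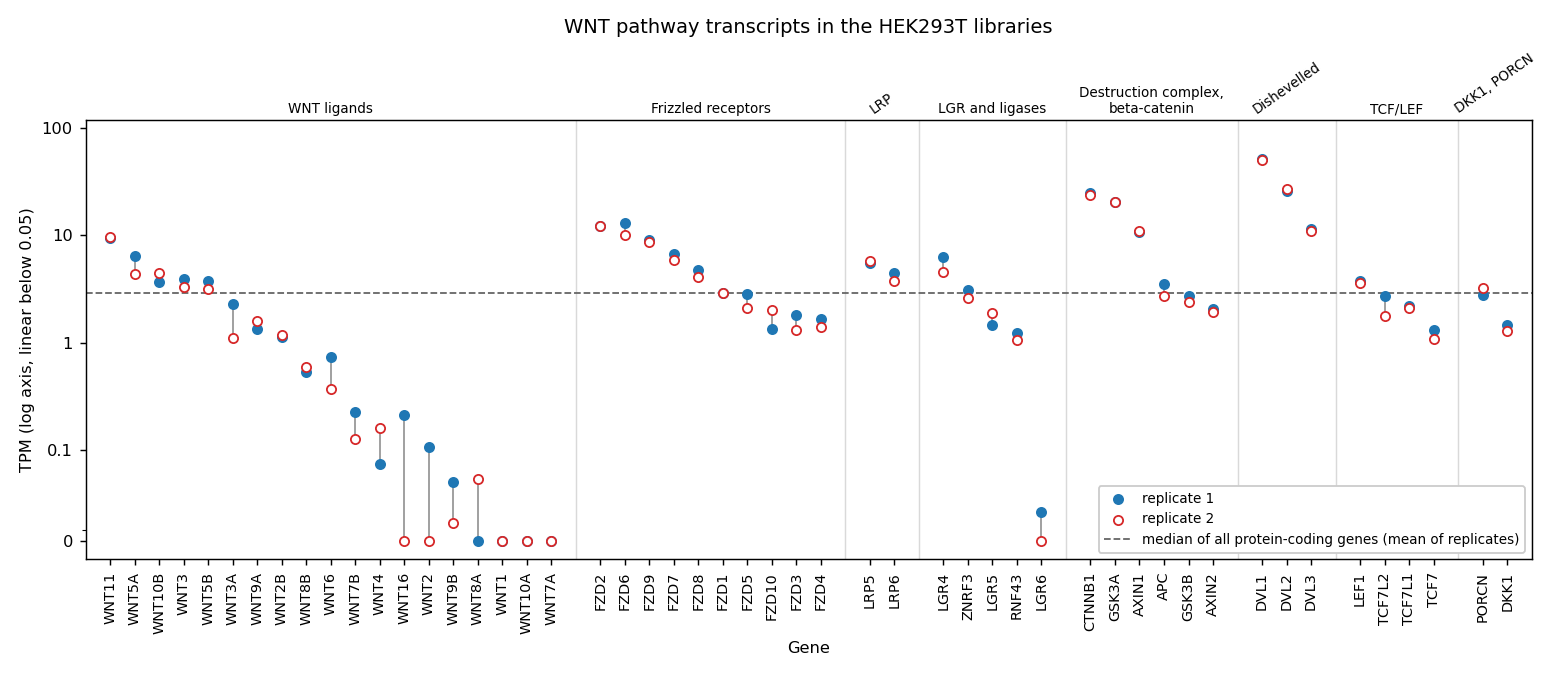
TPM of each of the 51 genes (vertical log axis, linear below 0.05) in replicate 1 (filled) and replicate 2 (open), grouped by role and ordered by mean TPM, with the median protein-coding gene dashed. DVL1 and DVL2 are the highest, and the ligands run from WNT11 at 9.54 TPM to 3 genes at 0.

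Several ligand genes lie next to each other with no protein-coding gene between them, and neighbours often differed in level. WNT3 and WNT9B lie on opposite strands, with 46 bases between the deposited gene models, and had 146 and 133 counts against 3 and 1. Their RefSeq starts lie further apart than the models, with upstream windows at chr17:46818693-46818942 and chr17:46851333-46851582. WNT10B and WNT1 lie 6586 bases apart on opposite strands, with 84 and 110 counts against 0 and 0. WNT6 and WNT10A lie 6618 bases apart on the same strand, and both were below detection, at 11 and 6 counts and at 0. WNT9A and WNT3A, 59.1 kb apart on opposite strands, were both detected.

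The CG dinucleotides in the sequences above did not separate expressed ligands from those with few counts. The upstream windows of WNT3 and WNT3A, both detected, held 26 and 38 CG, and those of WNT9B and WNT1, at 3 and 1 counts and at 0, held 31 and 29. RefSeq windows were matched for 39 of the 51 genes, leaving WNT7B, WNT10B, WNT11, FZD2, FZD3, FZD6, FZD7, FZD10, LRP6, LGR5, ZNRF3 and AXIN2. An observed over expected CG ratio of 0.6 or more was found in 5 of 6 detected ligands and 8 of 10 others. Over the 39 windows the share was 84.6%, and over 15301 protein-coding windows it was 64.2%. Among protein-coding genes that were detected it was 82.1%. WNT8A and WNT8B had the lowest ratios of the ligands, at 0.226 and 0.236, and WNT2, with 4 and 0 counts, the highest, at 1.16.

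**Figure D3:**
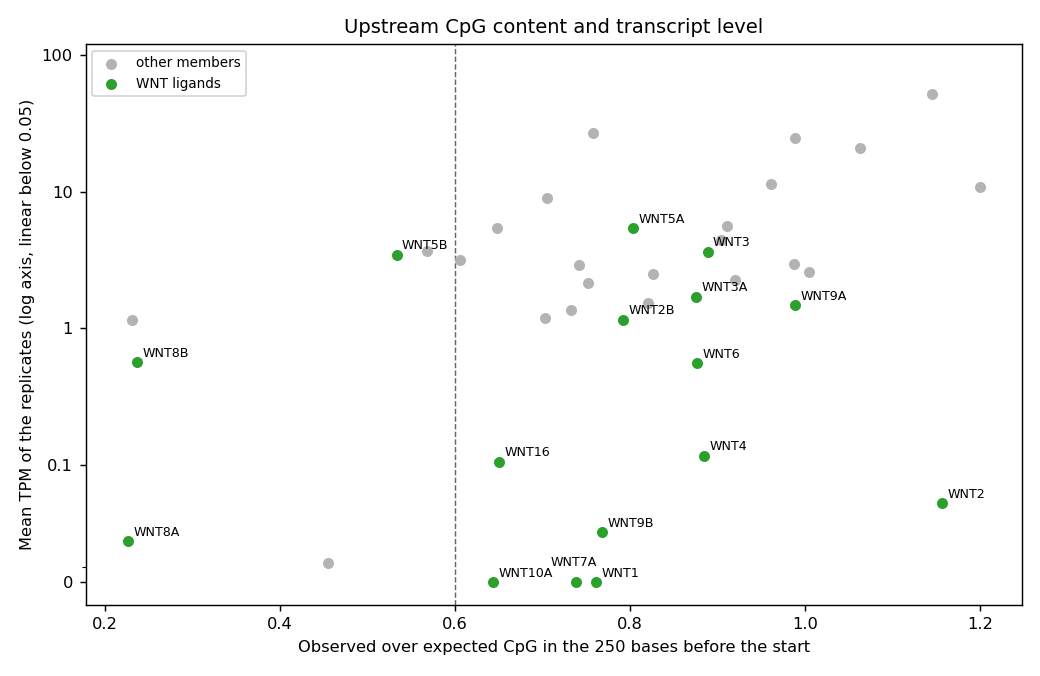
Mean TPM of the libraries (vertical log axis, linear below 0.05) against the observed over expected CG ratio in the 250 bases before the RefSeq start (horizontal axis), for the 39 genes with a window. The dashed line is the ratio of 0.6, and ligands (green) right of it range from 0 TPM to above 5 TPM.

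All 10 Frizzled receptors were detected, with a summed level of 53.7 ± 3.99 TPM. FZD2 (ENSG00000180340, chr17:44557484-44561262, plus strand) had 401 and 439 counts, or 12.3 ± 0.142 TPM. FZD6, which is known from planar cell polarity, had 466 and 385 counts, or 11.6 ± 2.16 TPM. Their libraries' ranges overlapped, with FZD6 the higher in replicate 1 and FZD2 in replicate 2, and they held 22.9 ± 1.97% (FZD2) and 21.5 ± 2.43% (FZD6) of the summed level.

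FZD9 followed with 187 and 191 counts, or 8.91 ± 0.334 TPM. FZD7, a receptor of stem cells in several tissues, had 269 and 255 counts, or 6.32 ± 0.570 TPM, and FZD8 had 168 and 157 counts, or 4.44 ± 0.445 TPM. From FZD6 down to FZD10, each gene was above the next in both libraries. By counting intervals taken across both libraries (lowest bound of one gene against highest bound of the next), only FZD8 over FZD1 was also apart. Within each library, FZD9 over FZD7 and FZD7 over FZD8 were apart as well. FZD1 had 174 and 188 counts, or 2.90 ± 0.00660 TPM, and FZD5 had 176 and 139, or 2.48 ± 0.540 TPM.

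The lowest Frizzled genes could not be ordered. FZD10 had 38 and 62 counts, or 1.67 ± 0.483 TPM. FZD3 had 217 and 168 counts, or 1.55 ± 0.359 TPM, and FZD4, the receptor that also binds norrin, had 108 and 96, or 1.53 ± 0.207 TPM. FZD4 shares 18.9% of its exonic bases with PRSS23 on the opposite strand, at 300 and 326 counts, and is uncertain. FZD3 had more counts than FZD1 in replicate 1 and fewer in replicate 2 but a lower TPM in both, since its merged exons are longer.

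The co-receptors were close in level. LRP5 (ENSG00000162337, chr11:68312591-68449275, plus strand) had 297 and 334 counts, or 5.63 ± 0.172 TPM. LRP6 had 407 and 367 counts, or 4.13 ± 0.518 TPM. LRP5 was above LRP6 in both libraries. Their counting intervals were apart in replicate 2 (5.15 to 6.40 against 3.39 to 4.17 TPM). In replicate 1 they overlapped (4.90 to 6.17 against 4.07 to 4.96 TPM). The median over the Frizzled and LRP genes was 4.29 TPM.

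Among the receptors for R-spondin, a secreted enhancer of WNT signalling, and the ubiquitin ligases that remove Frizzled from the membrane, 4 of 5 genes were detected. LGR4 (ENSG00000205213, chr11:27365961-27472790, minus strand) had 350 and 273 counts, or 5.44 ± 1.23 TPM, the highest of the list in both libraries and beyond counting error. LGR5, a marker of intestinal stem cells, had 67 and 92 counts, or 1.67 ± 0.286 TPM, and LGR6 had 1 and 0 counts. The ligase ZNRF3 had 189 and 171 counts, or 2.85 ± 0.351 TPM. Its paralogue RNF43 had 68 and 63 counts, or 1.15 ± 0.122 TPM. Other genes cover 69.0% of the exonic bases of RNF43, mostly a same-strand protein-coding gene (ENSG00000285897) at 1748 and 1922 counts, so its level is uncertain.

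The genes of the destruction complex ran from among the highest of the set to below the median protein-coding gene. Beta-catenin, CTNNB1 (ENSG00000168036, chr3:41194741-41260096, plus strand), had 2565 and 2639 counts, or 24.4 ± 0.790 TPM. It stood above 83.4% of protein-coding genes. GSK3A (ENSG00000105723, chr19:42226225-42242625, minus strand), one of the kinases that phosphorylate beta-catenin for degradation, had 1042 and 1122 counts, or 20.7 TPM in each library. It was below CTNNB1 in both libraries and beyond counting error, with 13.3% of its exonic bases shared with other genes.

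The scaffold AXIN1 had 705 and 774 counts, or 10.8 ± 0.147 TPM. Its paralogue AXIN2, a target of the pathway that also restrains it, had 93 and 95 counts, or 1.99 ± 0.0743 TPM. AXIN2 shares 25.2% of its exonic bases with a same-strand gene (ENSG00000266076) at 40 and 33 counts and is uncertain. APC, the other scaffold, had 384 and 318 counts, or 3.13 ± 0.578 TPM, and GSK3B, the second kinase, had 427 and 405 counts, or 2.58 ± 0.231 TPM. APC and GSK3B overlapped in range, and with the longest coding transcript GSK3B was the higher. APC shares 1.85% of its exonic bases with a same-strand gene (ENSG00000258864) at 1581 and 1349 counts and is uncertain. The median over the 6 genes was 6.98 TPM.

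The Dishevelled proteins carry the signal from Frizzled to AXIN, and DVL1 and DVL2 had the highest mean TPM of the 51 genes. DVL1 (ENSG00000107404, chr1:1335276-1349418, minus strand) had 1749 and 1856 counts, or 51.3 ± 0.536 TPM, above 91.1% of protein-coding genes. DVL2 had 1211 and 1361 counts, or 26.7 ± 0.803 TPM, and DVL3 had 630 and 655 counts, or 11.3 ± 0.281 TPM. The order DVL1, DVL2, DVL3 held in both libraries and beyond counting error. DVL1 made up 57.5 ± 0.592% of the family's summed TPM. With TPM from the longest coding transcript, DVL1 was at 42.3 TPM, CTNNB1 at 41.8 TPM and DVL2 at 32.3 TPM, so the place of CTNNB1 among them rests on the length chosen.

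The TCF/LEF factors, which bind DNA with beta-catenin, were all detected at a median of 2.19 TPM. LEF1 (ENSG00000138795, chr4:108047545-108168956, minus strand) was the highest, with 175 and 183 counts, or 3.69 ± 0.0768 TPM. TCF7L2 had 160 and 111 counts, or 2.24 ± 0.685 TPM, and TCF7L1 had 84 and 88 counts, or 2.14 ± 0.0419 TPM. Their order turned between the libraries. TCF7 had 115 and 102 counts, or 1.19 ± 0.163 TPM, lower than TCF7L1 with merged exons and higher with the longest coding transcript. It shares 2.08% of its exonic bases with SKP1 on the opposite strand, which had 3027 and 2801 counts, so its value is uncertain.

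PORCN (ENSG00000102312, chrX:48508959-48520814, plus strand), the enzyme that attaches the lipid to WNT proteins, had 139 and 174 counts, or 2.97 ± 0.316 TPM. DKK1 (ENSG00000107984, chr10:52314281-52318042, plus strand), a secreted inhibitor that binds LRP5 and LRP6, had 28 and 27 counts, or 1.37 ± 0.107 TPM. The antisense gene PRKG1-AS1 shares 10.2% of the exonic bases of DKK1 and had 57 and 52 counts, so part of the DKK1 count is uncertain. In the DKK1 sequence above, CTTTGAA begins 95 bases before the start of the gene, and the TATA-box motif 30 bases before it. This motif was searched on both strands and was in 1 of the 39 windows, that of DKK1, and in 3.25% of the 15301 protein-coding windows. The other form of the TCF/LEF motif that was searched, CTTTGAT, was in 0 of the 39 windows and in 1.73% of protein-coding windows. Either form was in 4.89% of the latter. The TATA-box motif was in 3 of 39 windows (DKK1, FZD8 and TCF7) and in 9.20% of protein-coding windows. A motif match is a description of the letters and not a binding site.

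Across the 8 roles, 40 pairs of neighbours in level were compared, leaving out genes at 0 in both libraries. The libraries' ranges were apart in 25 pairs. The counting intervals were apart in 11, with the higher gene's lowest bound in either library above the lower gene's highest bound in either. The Dishevelled and destruction complex genes gave 5 of those 11, and the 15 ligand pairs gave 1, WNT11 over WNT5A. This rule is stricter than counting error within each library. Pairs such as WNT5B over WNT3A and LEF1 over TCF7L2 failed it but were apart within each library.

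The replicates were compared where the mean count was at least 50, as log2 of replicate 2 over replicate 1 (edgeR TMM factors, prior count 2). Of the 37 WNT pathway genes that passed this filter, 0 were lower and 0 higher by 1 log2, beside 1.92% of 14704 genes that were lower and 0.143% that were higher. In all, 17 lay below 0 and 20 above, beside 50% of all genes below, with a median of 0.02. The lowest was TCF7L2 at -0.53 (95% counting interval -0.90 to -0.18) and the highest FZD10 at 0.66 (0.09 to 1.31). WNT5A followed TCF7L2 at -0.47 (-0.70 to -0.25). There is 1 library on each side, so no p-value can be given.

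The counting interval lay below 0 for 7 of the 37 genes (TCF7L2, WNT5A, FZD3, LGR4, FZD5, FZD6 and APC), or 18.9%, beside 24.6% of all genes. It lay above 0 for 2 (FZD10 and DVL2), or 5.41%, beside 22.4%. These intervals narrow with depth: the 37 genes had a median mean count of 181 and all 14704 genes 402.5. edgeR's biological coefficient of variation was 15.6% over the 18315 genes in its fit. WNT3A, with a mean count of 45.5, fell outside the filter, and its ratio was -0.92 (-1.64 to -0.32).

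The differences between replicates went with the GC content of the transcripts. Of the 14 genes with transcripts under 50% GC, 10 were below 0, with a median of -0.23, and of the 23 at 50% or more, 7 were, with a median of 0.05. The medians of all genes were -0.11 under 50% GC and 0.10 at 50% or more. The 7 genes with an interval below 0 were all under 50% GC, and FZD10 and DVL2 were above it. After each ratio was centred on genes of like GC content, the medians of the 14 and 23 genes were 0.01 and -0.02. FZD3 then stood at 0.06, FZD6 at 0.02 and APC at -0.06, while TCF7L2 stood at -0.51, WNT5A at -0.35, FZD5 at -0.39, LGR4 at -0.25 and FZD10 at 0.54.

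**Figure D4:**
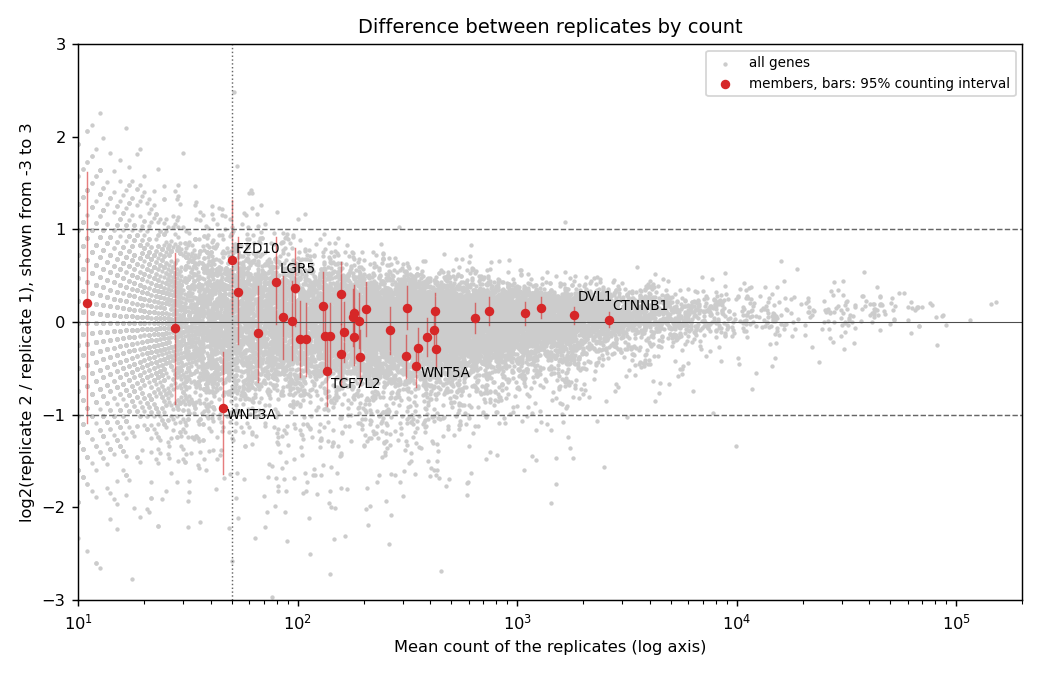
log2 ratio of replicate 2 over replicate 1 (vertical axis, shown from -3 to 3) against the mean count (horizontal log axis), for all genes (grey) and WNT pathway genes (red, bars are 95% counting intervals). The dotted line is the mean count of 50 and dashed lines are 1 log2, and no red point right of the dotted line is past a dashed line.

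The wider pathway was described from 86 other genes in 6 functional lists and a list of genes widely used as targets. Of the 86, 70 were detected (81.4%), beside 65.9% of protein-coding genes, a share that also stands beside each list below. The others were secreted modulators and CTNNA2. Among secreted modulators 3 of 18 were detected. DKK3, a distant relative of DKK1, had 509 and 433 counts, or 4.37 ± 0.725 TPM, with 47.5% of its exonic bases shared with other genes, and NOTUM, which removes the WNT lipid, had 53 and 42, or 1.81 ± 0.390 TPM. CER1 and NDP had 0 counts in both libraries. The R-spondin genes RSPO1 to RSPO4, named after their values were seen, had at most 3 counts in each library, below detection while LGR4, LGR5, RNF43 and ZNRF3 were detected.

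All 11 genes of ligand secretion and membrane modulation were detected. WLS, the carrier that brings WNT proteins to the cell surface, had 1484 and 1830 counts, or 40.9 ± 3.91 TPM, and GPC3, a cell-surface proteoglycan, had 736 and 729, or 28.2 ± 1.67 TPM. The lowest were TRABD2B at 0.424 ± 0.0400 TPM and APCDD1 at 0.816 ± 0.0887 TPM. With merged exon lengths, WLS stood between CTNNB1 and DVL1 in TPM and above every ligand in both libraries. CTNNB1 and DVL1 were close with the longest coding transcript, so the place of WLS beside them may rest on the length chosen.

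All 14 genes of beta-catenin independent signalling were detected, led by the co-receptors PTK7, at 9.71 ± 0.342 TPM, and RYK, at 8.39 ± 1.68 TPM. The lowest were PRICKLE2, at 0.173 ± 0.00904 TPM, and DAAM2, at 1.19 ± 0.227 TPM, with over 25% of the exonic bases of each shared. All 23 genes of beta-catenin turnover were detected, led by RBX1, a ubiquitin ligase subunit, at 172 ± 9.10 TPM, and the kinase CSNK1E at 91.2 ± 0.911 TPM. The lowest there were the inhibitors NKD1, at 0.351 ± 0.0364 TPM, and CXXC4, at 0.597 ± 0.353 TPM.

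All 14 nuclear cofactors were detected. TLE5 and PYGO2 were the highest, at 40.7 ± 3.09 and 26.8 ± 1.96 TPM, and BCL9L, with 37.5% of its exonic bases shared, the lowest at 0.458 ± 0.118 TPM. PYGO1, which helps beta-catenin to activate transcription, had 172 and 80 counts and was the only one of 62 filtered genes past 1 log2, beside 1.92% of all genes that were lower and 0.143% that were higher. Its ratio was -1.10 (-1.52 to -0.73), or -0.66 when centred on GC content. Its transcript was 34.6% GC. Of the cadherin and catenin partners 5 of 6 were detected. CTNNA1, which ties beta-catenin to actin, was at 22.7 ± 0.402 TPM and JUP, a relative of beta-catenin, at 14.1 ± 0.883 TPM. CDH1 was at 0.674 ± 0.0610 TPM, and CTNNA2 was at 0.

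Of the 22 genes widely used as targets, which include 7 of the 51 genes, 17 were detected (77.3%), beside 65.9% of protein-coding genes. Their median was 1.28 TPM, beside 2.88 TPM for the median protein-coding gene, and 3 of the 22 were above the latter. CDX2, an intestinal regulator, had 564 and 678 counts, or 19.5 ± 1.51 TPM, and BMP4 had 157 and 134, or 5.21 ± 0.853 TPM. CDX1 had 0 counts in both libraries and CD44 had 3 and 4. RefSeq windows were matched for 12 of the 22 genes. A TCF/LEF motif match was in 3 of these windows (CDX2, DKK1 and SP5), beside 4.89% of protein-coding windows. The upstream window of CDX2 held 1 match, and that of SP5, named after its values were seen and with 5 and 3 counts, held 3.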

How the data were processed

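RNA of untreated HEK293T cells was primed with oligo(dT), and the sheared cDNA was ligated into libraries, per the labels' protocols, so RNAs without a poly(A) tail are under-represented. The deposited values are raw counts for Ensembl genes, not normalised by the authors, per the file headers. Counting used featureCounts 2.0.3 on GRCh38 after bcl2fastq 2.17 and Trim Galore 0.6.7, per the submitters' processing notes. Not given in the sources used here are the aligner, annotation release, strandedness and overlap rule. In 523 of 837 pairs with a gene wholly inside opposite-strand exons the inner gene had counts, and in 0 did it exceed the outer gene. The level of any gene that shares exons is therefore uncertain in part, also where the text does not say so.

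CPM, TPM and exact intervals (Poisson for levels, Clopper-Pearson for ratios) were computed here from these counts and the exon lengths in the files, and a count of 0 was read as up to 3. Without molecular identifiers reads may be copies, so these cover counting error only. Ratios used edgeR 4.0.16 with TMM factors of 1.01 and 0.989, where the mean count was at least 50. GC content and gene types came from GENCODE 29, with ratios centred in 20 GC bins, and upstream sequences from RefSeq GRCh38.p14. The steps were tested on simulated data. The 1 group gives no test. All members were named, with the 2 highest and 2 lowest genes of each other list and any past 1 log2. The rule also took the highest of each marker list, but those of the kidney and endothelial lists, below detection, are not named. Marker genes at 0 in both libraries and CD14 were named outside the rule, and further genes are said to be so where they appear. A gene of the blood list that this rule takes is not reported here. Members and lists were chosen with earlier results of these data known.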

Additional observations from a re-analysis of the deposited data

How the results depend on the processing

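At a threshold of 0.5 CPM 40 of the 51 genes were detected, at 5 CPM 31, and 37 without genes sharing 25% or more of their exonic bases; of the 86 others 71, 56 and 63 were. With no filter on counts, 2 genes were lower in replicate 2 by 1 log2, against 0 with it. The median of the ligands was 0.383 TPM with the longest coding transcript, 3.54 over detected genes, and 0.372 to 0.535 with either library left out. The receptors' median was 3.005 TPM with that length and 10.4 CPM with no length, and 3.95 to 4.63 TPM in single libraries. The destruction complex's was 9.76 TPM with that length, 31.6 CPM with none, 10.8 TPM without genes sharing exons, and 6.83 to 7.13 TPM in single libraries. The TCF/LEF median was 6.68 CPM with no length and 1.93 to 2.45 TPM in single libraries. Of 49 single-gene levels 37 moved by more than the SD of the libraries with the transcript length. That length also rescaled all TPM: FZD10, at 3282 bases in both settings, went from 1.67 to 1.15 TPM. Levels with the different lengths are therefore not on a common scale. The median protein-coding gene is not given with that length. Of 38 ratios 4 moved out of their counting interval with GC centring. Under GC centring 154 genes in all were lower and 32 higher by 1 log2, against 282 and 21. Library totals alone, DESeq2 size factors (1.42.0) and a prior count of 0.5 moved none of the 38 ratios. No ratio can be had with a library left out. No paired analysis was possible because the labels give 1 group. Depth limits the ligands with 0 to 12 counts.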

Other observations

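HBB, which encodes a haemoglobin chain and belongs to the blood list, had 0 counts in replicate 1 and 38 in replicate 2, and was named after its values were seen. CD14, another of that list, had 9 and 13 counts. The part of blood RNA in the differences between replicates was not tested.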
